A study of Sus scrofa with 59 samples.

Results

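Lipogenesis-high and lipogenesis-low muscles are the 2 ends of a ranking of 59 pig muscles by their transcript levels of FASN, SCD and ELOVL6. The ranking was chosen by the values themselves. For each of the 3 genes the probe set with the highest mean was standardised over the 59 arrays, the 3 were averaged, and the 20 arrays with the highest mean formed the lipogenesis-high group and the 20 with the lowest the lipogenesis-low group. The middle 19 arrays belonged to neither. Each array held longissimus dorsi (back muscle) RNA of 1 pig from a cross labelled LD/LW x Duroc, aged 170 days, fed without restriction and raised on 1 farm, and the labels give neither group a treatment or allele of its own. Trait values per pig were not analysed here. The labels give no sex, slaughter day or array batch per pig, so both groups may differ in these. The groups were cut from the same arrays that were then tested, so a p-value below concerns the association of a gene with the 3-gene score in these pigs.

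De novo lipogenesis builds fatty acids from the acetyl units that carbohydrate breakdown supplies. FASN, the fatty acid synthase, assembles palmitate with NADPH as the reductant, ELOVL6 lengthens palmitate to stearate, and SCD, stearoyl-CoA desaturase, turns stearate into oleate. In pigs the pathway is most active in adipose tissue, and a muscle sample contains adipocytes between its fibres as well as the fibres themselves.

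The 3 genes that chose the groups are given as a description, with no test. FASN ran from 6.36 to 8.66 log2 with a median of 6.97 in lipogenesis-high muscles, against 6.07 to 6.69 with a median of 6.30 in lipogenesis-low muscles. SCD ran from 6.71 to 8.32 with a median of 7.26 in lipogenesis-high muscles, against 5.76 to 6.87 with a median of 6.34 in lipogenesis-low muscles. ELOVL6 ran from 7.27 to 8.66 with a median of 7.82 in lipogenesis-high muscles, against 6.24 to 7.89 with a median of 7.11 in lipogenesis-low muscles. Every one of the 3 genes overlapped between the groups, so no single gene separated them.

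The upper end of the score was uneven. Pig 44 scored 2.83 and pig 74 scored 2.72, pig 26 followed at 1.82, and the lowest array, pig 50, scored -1.15. The last array inside the lipogenesis-high group was pig 60 at 0.184, and the first outside it was pig 25 at 0.174. At the other border pig 12 at -0.349 was the last inside the lipogenesis-low group and pig 70 at -0.310 the first outside. Arrays on either side of both borders were therefore nearly alike on the score. FASN had 3 further probe sets, which averaged 5.53, 6.68 and 6.34 log2 in lipogenesis-high muscles, against 5.54, 6.66 and 6.41 in lipogenesis-low muscles. The group means of each lay within 1 SD of each other, unlike those of the probe set in the score. The 3 further probe sets of ELOVL6 averaged 5.86, 5.13 and 6.05 in lipogenesis-high muscles, against 5.78, 5.09 and 5.75 in lipogenesis-low muscles, and SCD had 1 probe set.

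**Figure D1:**
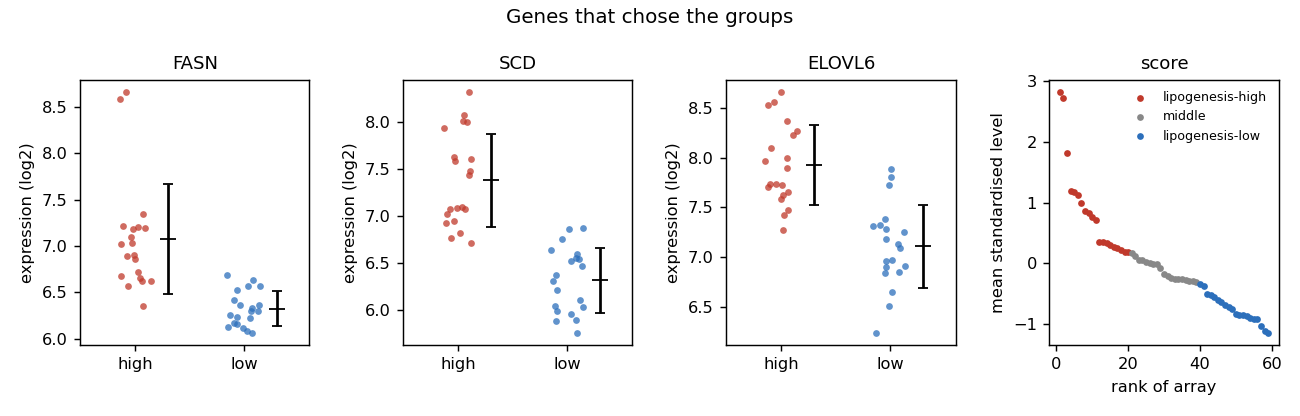
Expression of FASN, SCD and ELOVL6 (log2, 1 point per array) in the 20 lipogenesis-high and 20 lipogenesis-low muscles, with mean and SD, and the score of all 59 arrays by rank. The 2 highest arrays, at 2.83 and 2.72, stand apart from the rest, and the scores run on without a gap at both group borders.

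Skeletal muscle markers were bright on every array. Over the 59 arrays the muscle creatine kinase gene CKM lay between 14.53 and 14.70 log2, the fast myosin light chain gene MYLPF between 14.59 and 14.77, and the slow myosin heavy chain gene MYH7 between 13.98 and 14.75, all near the top of the scale, where differences are compressed. Array medians ran from 6.23 to 6.30. The deposited values are GCRMA values, read as log2, and their errors below come from the spread between pigs.

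Of 4921 genes tested outside the 3 score genes, 361 were higher in lipogenesis-high muscles, which is 7.34% of genes, and 113 were lower, which is 2.3%, at an adjusted p under 0.05 (limma, Benjamini-Hochberg over 11967 probe sets). With quantile normalisation the split was 300 higher and 196 lower. The differences were small: the median was 0.29 log2 (1.22-fold) among the higher genes and -0.23 among the lower, while the median of all genes was 0.01. A difference above 0.5 log2 was reached by 51 of the higher and 9 of the lower genes. The higher genes included 4 of triglyceride synthesis, 2 adipocyte markers, 8 of the extracellular matrix and 5 of macrophages. The lower genes included 4 immediate early genes, which respond within minutes to a stimulus, and 3 genes of fatty acid oxidation. When each of the 40 arrays was left out in turn, 329 of the 474 called genes kept their call every time. Leaving out pig 38 gave 285 higher and 74 lower genes, pig 16 gave 301 and 74, pig 48 gave 288 and 75, pig 12 gave 467 and 175, and pig 32 gave 484 and 208. Without pigs 44 and 74, an omission chosen after seeing the data, 349 genes were higher and 131 lower.

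No other tested gene of fatty acid synthesis passed. None of the 7 tested genes of fatty acid synthesis and desaturation was called, against 7.34% higher and 2.3% lower of all genes. No call among 7 genes is near those shares. Their differences ran from -0.06 to 0.12, with a median of 0.04. The 7 genes included ACSS2, which makes acetyl-CoA from acetate (0.04 ± 0.08, SE), and the citrate carrier SLC25A1 (-0.06). Also among them were the elongation enzymes ELOVL1 (0.03), HSD17B12 (0.12) and HACD3 (0.07). ACACA, the acetyl-CoA carboxylase that commits carbon to fatty acids, was too dim to pass the filter and averaged 5.76 log2 in lipogenesis-high muscles and 5.78 in lipogenesis-low muscles. The desaturases FADS1 and FADS2 were dim as well. ACLY, which makes cytosolic acetyl-CoA from citrate, was not among the annotated genes and was not analysed here.

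The regulators of lipogenesis likewise gave no call. None of 10 tested genes passed, against 7.34% higher and 2.3% lower of all genes, with a median of 0.01. No call among 10 genes is near those shares. MID1IP1, which in mice and humans stimulates acetyl-CoA carboxylase, differed by 0.30 ± 0.14 (SE, adjusted p = 0.141). The sterol sensor genes INSIG1 and SCAP differed by 0.14 and -0.11. SREBF1, the master regulator of lipogenic genes, was dim, at 5.87 log2 in lipogenesis-high muscles and 5.97 in lipogenesis-low muscles (adjusted p = 0.201 without the filter).

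Of 6 tested genes of NADPH supply 3 were higher, against 7.34% of all genes, and none was lower, with a median of 0.11. None passed with the adipocyte level, described below, as a covariate. IDH1, the cytosolic isocitrate dehydrogenase, ran from 7.05 to 7.94 log2 with a median of 7.56 in lipogenesis-high muscles, against 6.54 to 8.13 with a median of 7.13 in lipogenesis-low muscles. The groups overlapped across most of their range, although 19 of 20 lipogenesis-high arrays lay above the lipogenesis-low median. The difference was 0.38 ± 0.10 (SE, adjusted p = 0.0102). The malic enzyme gene ME1 was higher by 0.19 ± 0.06 (adjusted p = 0.0375), and its second probe set gave 0.31 (adjusted p = 0.0199). TKT, the transketolase of the pentose phosphate pathway, was higher by 0.21 ± 0.07 (adjusted p = 0.0453). The calls of ME1 and TKT sat near the threshold, with adjusted p up to 0.0632 and 0.0728 when single arrays were left out. PGD, which also produces NADPH, was dim and differed by -0.14 (adjusted p = 0.491 without the filter).

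Triglyceride synthesis held called genes in both directions. Of 15 tested genes 4 were higher and 1 was lower, against 7.34% and 2.3% of all genes, with a median of 0.08. None passed with the adipocyte level as a covariate. DGAT2, which adds the last acyl chain to make triglyceride, ran from 5.89 to 7.99 log2 with a median of 6.83 in lipogenesis-high muscles, against 5.54 to 7.04 with a median of 6.06 in lipogenesis-low muscles. Of the 20 lipogenesis-high arrays, 8 lay above every lipogenesis-low array. The difference was 0.75 ± 0.15 (SE), or 1.68-fold (adjusted p = 0.00252). DGAT1, which catalyses the same step, differed by -0.04. GPAT4, a glycerol-3-phosphate acyltransferase of the endoplasmic reticulum that starts the pathway, ran from 8.62 to 9.76 with a median of 9.08 in lipogenesis-high muscles, against 9.07 to 10.08 with a median of 9.52 in lipogenesis-low muscles. In 10 of 20 lipogenesis-high arrays GPAT4 lay below every lipogenesis-low array. It was lower by -0.42 ± 0.11 (adjusted p = 0.00989). GPAM, the mitochondrial enzyme of the same step, differed by -0.09 (adjusted p = 0.172).

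The acyl-CoA synthetases, which activate fatty acids, were mixed. ACSL4 was higher by 0.24 ± 0.06 (SE, adjusted p = 0.0138) and ACSL5 by 0.32 ± 0.10 (adjusted p = 0.0397). ACSL1 differed by -0.11 and ACSL3 by 0.16, and neither passed. The retinol saturase gene RETSAT was higher by 0.39 ± 0.13 (adjusted p = 0.0486). RETSAT and ACSL5 lost their calls when single arrays were left out, with adjusted p up to 0.0807 and 0.0652. LPIN1, a phosphatidate phosphatase, differed by -0.27 ± 0.09 (adjusted p = 0.0605).

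Of 10 tested genes of the lipid droplet and of lipolysis 2 were higher and 1 lower, against 7.34% and 2.3% of all genes, with a median of -0.01. CIDEA, a lipid droplet protein that drives droplet fusion, ran from 6.268 to 7.85 log2 with a median of 7.25 in lipogenesis-high muscles, against 5.98 to 7.37 with a median of 6.42 in lipogenesis-low muscles. In the lipogenesis-high group 19 of 20 arrays lay above the lipogenesis-low median, and 6 lay above every lipogenesis-low array. CIDEA was higher by 0.70 ± 0.12 (SE), or 1.63-fold (adjusted p = 0.000287). LIPA, the lysosomal acid lipase, ran from 7.69 to 9.24 with a median of 8.12 in lipogenesis-high muscles, against 7.07 to 8.39 with a median of 7.48 in lipogenesis-low muscles. Every lipogenesis-high array lay above the lipogenesis-low median of LIPA. It was higher by 0.64 ± 0.12 (adjusted p = 0.00133), and its second probe set gave 0.46 (adjusted p = 0.00526).

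The other lipase and droplet coat genes had smaller or negative differences. The adipose triglyceride lipase gene PNPLA2 differed by -0.08, the hormone-sensitive lipase gene LIPE by 0.01 and MGLL, the monoglyceride lipase, by 0.04. PLIN2, the perilipin that coats droplets in many cell types, differed by -0.42 ± 0.23 (SE, adjusted p = 0.232). The seipin gene BSCL2 was lower by -0.14 ± 0.05 (adjusted p = 0.0491), with adjusted p up to 0.0782 when single arrays were left out.

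**Figure D2:**
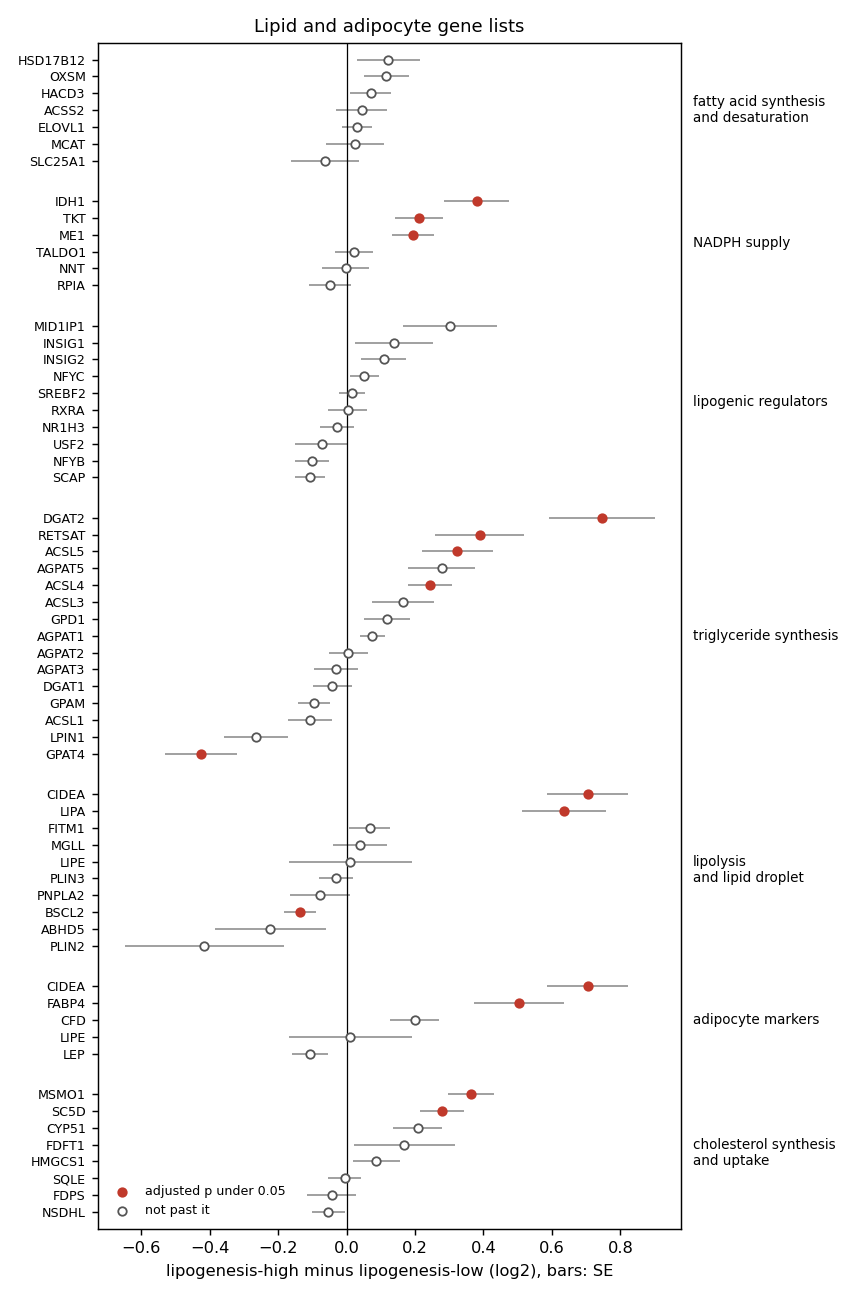
Difference in log2 expression, lipogenesis-high minus lipogenesis-low, for each tested gene of 7 lipid and adipocyte lists, with its SE. Filled points passed an adjusted p of 0.05: none of the fatty acid synthesis and regulator genes did, while DGAT2, CIDEA, LIPA and FABP4 lie at 0.50 or above and GPAT4 at -0.42.

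Some adipocyte markers were higher in lipogenesis-high muscles, and few were bright enough to test. Of 5 tested markers 2 were higher, CIDEA and FABP4, and none was lower, against 7.34% and 2.3% of all genes. The median was 0.20. FABP4, the fatty acid binding protein of adipocytes, ran from 10.10 to 11.77 log2 with a median of 11.34 in lipogenesis-high muscles, against 9.92 to 11.75 with a median of 10.65 in lipogenesis-low muscles. The ranges overlapped almost wholly, but 19 of 20 lipogenesis-high arrays lay above the lipogenesis-low median. FABP4 was higher by 0.50 ± 0.13 (SE), or 1.42-fold (adjusted p = 0.0128). The adipsin gene CFD differed by 0.20 ± 0.07 (adjusted p = 0.0649), and the leptin gene LEP by -0.11, neither passing. Among the dim markers, tested without the filter, the adiponectin gene ADIPOQ averaged 5.98 ± 0.68 in lipogenesis-high muscles and 5.25 ± 0.26 in lipogenesis-low muscles (SD, n = 20 each; difference 0.73, limma adjusted p = 0.00415). PPARG, the transcription factor of adipocyte differentiation, averaged 5.26 ± 0.40 and 4.81 ± 0.27 in lipogenesis-high and lipogenesis-low muscles (adjusted p = 0.00846), and the retinol binding protein gene RBP4 6.08 ± 0.27 and 5.79 ± 0.19 (adjusted p = 0.0116). The other 4 of 7 dim markers did not pass: CEBPA differed by -0.16, RETN by -0.12, ADRB3 by -0.06 and PCK1 by 0.14. The genes PLIN1, PLIN4, CIDEC and AQP7 were not analysed here.

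The summed adipocyte level moved with the groups. The mean level of the 5 tested markers ran from 8.12 to 9.00 with a median of 8.56 in lipogenesis-high muscles, against 7.93 to 8.56 with a median of 8.32 in lipogenesis-low muscles. No marker was at 0, a value that the scale does not contain. In bulk RNA, more adipocytes and more RNA of these genes per adipocyte cannot be told apart. With the standardised adipocyte level as a covariate, 21 genes were higher and 8 lower, of which 21 and 5 were among those called without it. The standardised level itself averaged 0.68 in lipogenesis-high and -0.29 in lipogenesis-low muscles. With that covariate DGAT2 differed by 0.57 ± 0.17 (SE, adjusted p = 0.0823), LUM by 0.51 ± 0.14 (adjusted p = 0.0633) and IDH1 by 0.26 ± 0.11 (adjusted p = 0.176). Among the named genes 6 passed with it: THY1 (0.59), SEC24D (0.60), MGST1 (0.65), MT-2B (0.95), GPNMB (1.35) and MSMO1 (0.33). CIDEA and FABP4 are themselves in the covariate, where they differed by 0.40 and 0.23 and did not pass. All 361 higher genes stayed positive and all 113 lower genes stayed negative in that fit. Beyond this fit, the part of the adipocyte level in the results for other genes was not tested.

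A pair of sterol synthesis genes was higher. Of 8 tested cholesterol genes 2 were higher and none lower, against 7.34% and 2.3% of all genes, with a median of 0.13. With the adipocyte level as a covariate 1 of the 8 passed. MSMO1, the methylsterol monooxygenase, ran from 7.82 to 8.56 log2 with a median of 8.16 in lipogenesis-high muscles, against 7.31 to 8.22 with a median of 7.84 in lipogenesis-low muscles, and 8 of 20 lipogenesis-high arrays lay above every lipogenesis-low array. It was higher by 0.36 ± 0.07 (SE, adjusted p = 0.000844). SC5D, a sterol desaturase late in the pathway, was higher by 0.28 ± 0.06 (adjusted p = 0.00515). The dim gene HSD17B7, which acts next to MSMO1 in removing sterol methyl groups, differed by 0.56 without the filter (adjusted p = 0.00389). CYP51 differed by 0.21 and FDFT1 by 0.17, and SQLE, FDPS and NSDHL lay between -0.05 and 0.00, none passing.

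Of 10 tested genes of serine and one-carbon metabolism 2 were higher and none lower, against 7.34% and 2.3% of all genes. With the adipocyte level as a covariate none of the 10 passed. PSAT1, the phosphoserine aminotransferase, ran from 7.33 to 9.21 log2 with a median of 7.999 in lipogenesis-high muscles, against 6.77 to 8.36 with a median of 7.38 in lipogenesis-low muscles. The highest 6 lipogenesis-high arrays lay above all lipogenesis-low arrays. PSAT1 was higher by 0.78 ± 0.14 (SE), or 1.72-fold (adjusted p = 0.000726). PSPH, the phosphatase of the next step, was higher by 0.47 ± 0.15 (adjusted p = 0.044), with adjusted p up to 0.073 when single arrays were left out. The other 8 of 10 tested genes did not pass, and the list median was 0.03. Among these 8 was the serine synthesis gene PHGDH, named after its values were seen, which differed by -0.03.

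Of 23 tested genes of fatty acid oxidation 3 were lower and 1 higher, against 2.3% and 7.34% of all genes, with a median of -0.04. None of the 23 passed with the adipocyte level as a covariate, nor with the first principal component of unlisted genes (medians -0.10 and -0.05). The heat shock covariate, described below, left 1 lower and none higher. For the slope on the score over all arrays, none was lower and 1 was higher. Counts were 3 lower and 1 higher with the EIF1AY level as a covariate, and 2 and 1 without the 2 highest arrays. CPT1B, the muscle carnitine palmitoyltransferase that admits fatty acids to mitochondria, ran from 9.16 to 10.02 log2 with a median of 9.69 in lipogenesis-high muscles, against 9.53 to 10.88 with a median of 9.89 in lipogenesis-low muscles. In 6 of 20 lipogenesis-high arrays it lay below every lipogenesis-low array. CPT1B was lower by -0.30 ± 0.08 (SE, adjusted p = 0.0142). PDK4, a kinase that turns off pyruvate dehydrogenase when fat is burned, was lower by -0.23 ± 0.07 (adjusted p = 0.0281), and its second probe set gave -0.44. ACADVL, the very long chain acyl-CoA dehydrogenase, was lower by -0.30 ± 0.09 (adjusted p = 0.0337; up to 0.0578 with single arrays left out), and its second probe set gave -0.53. Related genes, named after their values were seen, did not pass: CPT1A differed by 0.07, and the shorter chain dehydrogenases ACADL, ACADM and ACADS by 0.10, 0.02 and 0.07. ETFDH, which passes electrons from these dehydrogenases to the respiratory chain, was lower by its second probe set (-0.27, adjusted p = 0.0385) and did not pass by its brightest (adjusted p = 0.108). ACAA1, the thiolase of peroxisomes, was higher by 0.24 ± 0.07 (adjusted p = 0.0154).

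Few genes of the wider energy metabolism, and no fibre type gene, passed by their brightest probe sets. None of 24 tested oxidative phosphorylation genes, 11 glycogen genes and 9 genes of fatty acid uptake passed, with medians of -0.03, 0.03 and -0.08. Pyruvate carboxylase, PC, which feeds the citrate pool, was the 1 of 19 TCA cycle genes that passed, higher by 0.36 ± 0.08 (SE, adjusted p = 0.0035), and in 13 of 20 lipogenesis-high arrays it lay above every lipogenesis-low array. ALDOC, an aldolase, was the 1 of 16 glycolysis genes, higher by 0.28 ± 0.06 (adjusted p = 0.00446). Over all genes 7.34% were higher and 2.3% lower, so 1 higher gene in 19 or in 16 does not exceed that share. None of 9 slow fibre and 9 fast fibre genes passed, with MYH7 at -0.02 and medians of -0.02 and 0.03. Dimmer probe sets passed for the slow tropomyosin gene TPM3 (0.23, adjusted p = 0.0217; brightest 0.23, adjusted p = 0.076) and the succinate dehydrogenase gene SDHA (-0.36, adjusted p = 0.0445; brightest -0.13). Of 7 insulin and growth signalling genes only FOXO1, a transcription factor of fasting that insulin holds out of the nucleus, passed by its brightest probe set: it was lower by -0.40 ± 0.11 (adjusted p = 0.0199). FOXO1 ran from 8.45 to 9.72 with a median of 8.85 in lipogenesis-high muscles, against 8.60 to 10.13 with a median of 9.34 in lipogenesis-low muscles. Dimmer probe sets passed for GRB10, an adaptor that restrains insulin signalling (-0.26, adjusted p = 0.00642), and for the growth factor gene IGF1 (0.22, adjusted p = 0.0211), whose brightest probe sets gave -0.18 and 0.03. The dim insulin receptor gene INSR, named after its values were seen, differed by -0.31 without the filter (adjusted p = 0.03).

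Of 17 tested extracellular matrix genes 8 passed, all higher in lipogenesis-high muscles, with a median of 0.29, against 7.34% of all genes. With the adipocyte level as a covariate none of the 17 passed and the median was 0.19, while 12 had a positive slope past the threshold over all 59 arrays. LUM, the collagen-binding proteoglycan lumican, ran from 9.98 to 11.64 log2 with a median of 10.73 in lipogenesis-high muscles, against 9.59 to 11.07 with a median of 10.04 in lipogenesis-low muscles. It was higher by 0.65 ± 0.12 (SE, adjusted p = 0.0012), and 19 of 20 lipogenesis-high arrays lay above the lipogenesis-low median. The fibronectin gene FN1 was higher by 0.60 ± 0.12 (adjusted p = 0.00181), the periostin gene POSTN by 0.78 ± 0.20 (adjusted p = 0.0111), the decorin gene DCN by 0.30 ± 0.07 (adjusted p = 0.00501) and the fibrillin gene FBN1 by 0.34 ± 0.08 (adjusted p = 0.00501). The remaining 3 were SPARC and, named after their values were seen, COL6A3 and LOX. SPARC, a collagen-binding glycoprotein, was higher by 0.29 ± 0.06 (adjusted p = 0.00193), but its second probe set gave -0.09 (adjusted p = 0.209), and that of FBN1 gave 0.16 (adjusted p = 0.34). COL1A2, a chain of the main fibrillar collagen that was also named afterwards, differed by -0.08.

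THY1, a surface protein of fibroblasts and other mesenchymal cells, had the smallest p-value of the named genes. It ran from 9.35 to 10.94 log2 with a median of 10.30 in lipogenesis-high muscles, against 8.96 to 10.30 with a median of 9.65 in lipogenesis-low muscles. In 9 of 20 lipogenesis-high arrays it lay above every lipogenesis-low array. THY1 was higher by 0.73 ± 0.11 (SE), or 1.66-fold (adjusted p = 9.67e-05), and its 2 other probe sets gave 0.45 and 0.22, both past the threshold. THY1 was the 1 gene of 6 in the fibro-adipogenic list that passed, against 7.34% higher and 2.3% lower of all genes. The list median was 0.00. CEBPD and CEBPB, transcription factors of early adipocyte differentiation, differed by -0.50 (adjusted p = 0.0601) and -0.16. The dim gene SFRP1, a secreted Wnt inhibitor named after its values were seen, differed by 0.78 without the filter (adjusted p = 0.0016).

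Of 10 tested macrophage and leukocyte genes 5 passed, all higher in lipogenesis-high muscles, against 7.34% of all genes, and the median was 0.32. With the adipocyte level as a covariate none of the 10 passed (median 0.28), nor did any for the slope on the score over all 59 arrays. C1QC, a chain of complement C1q made by macrophages, ran from 7.34 to 8.93 log2 with a median of 7.99 in lipogenesis-high muscles, against 6.34 to 8.59 with a median of 7.40 in lipogenesis-low muscles, and was higher by 0.61 ± 0.16 (SE, adjusted p = 0.0149). AIF1, a calcium-binding protein of macrophages, was higher by 0.51 ± 0.12 (adjusted p = 0.0059), LAPTM5, a lysosomal protein of leukocytes, by 0.53 ± 0.14 (adjusted p = 0.0114), and TYROBP, a signalling adaptor of myeloid cells, by 0.44 ± 0.11 (adjusted p = 0.009). The phagocyte oxidase gene GP91-PHOX passed narrowly (0.30 ± 0.10, adjusted p = 0.0491). Named after their values were seen, the macrophage receptor gene CD163 differed by 0.13, and the dim leukocyte genes CD14, ITGAM and PTPRC by -0.07, -0.06 and -0.09. The other dim leukocyte genes of the list, also named afterwards, were CD4 (-0.06), CD3E (0.08) and CD8A (0.54, adjusted p = 0.0777 without the filter). None of these passed. The mean level of the 10 genes ran from 6.66 to 7.78 in lipogenesis-high muscles, against 6.28 to 7.59 in lipogenesis-low muscles, so the groups overlapped widely. The part of this level in the results for other genes was not tested. CTSS, a lysosomal protease of antigen-presenting cells, was higher by 0.71 ± 0.16 (adjusted p = 0.00492), and every lipogenesis-high array lay above its lipogenesis-low median of 9.38. CTSK, another lysosomal protease, was higher by 0.40 ± 0.09 (adjusted p = 0.00432). CTSS and CTSK belong to a separate list, proteolysis and atrophy. Of its 13 tested genes 3 were higher and 1, GABARAPL1, was lower (-0.35), against 7.34% and 2.3% of all genes. The list median was -0.07, and none passed with the adipocyte level as a covariate. CTSB, another cathepsin gene, differed by 0.12. CTSD and CTSV, named after their values were seen, differed by -0.125 and -0.07, and none of these passed.

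Of 10 tested interferon response genes 2 were higher, against 7.34% of all genes, and the median was 0.35. None passed with the adipocyte level as a covariate. TAP1, the peptide transporter of antigen presentation, was higher by 0.60 ± 0.17 (SE, adjusted p = 0.0203), but its second probe set gave -0.02. The immunoproteasome subunit gene PSMB8 was higher by 0.62 ± 0.20 (adjusted p = 0.0424; up to 0.0699 with single arrays left out). CXCL9 and GBP1 had the largest differences of the list, 1.18 and 1.10, and missed the threshold (adjusted p = 0.0867 and 0.0818). IFIT1, ISG15 and MX1, named after their values were seen, lay between 0.05 and 0.10. Of the other cell type lists, none of 9 endothelial genes, 7 smooth muscle and pericyte genes and 2 nerve genes passed, and the haemoglobin gene HBB differed by 0.17 (adjusted p = 0.056).

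**Figure D3:**
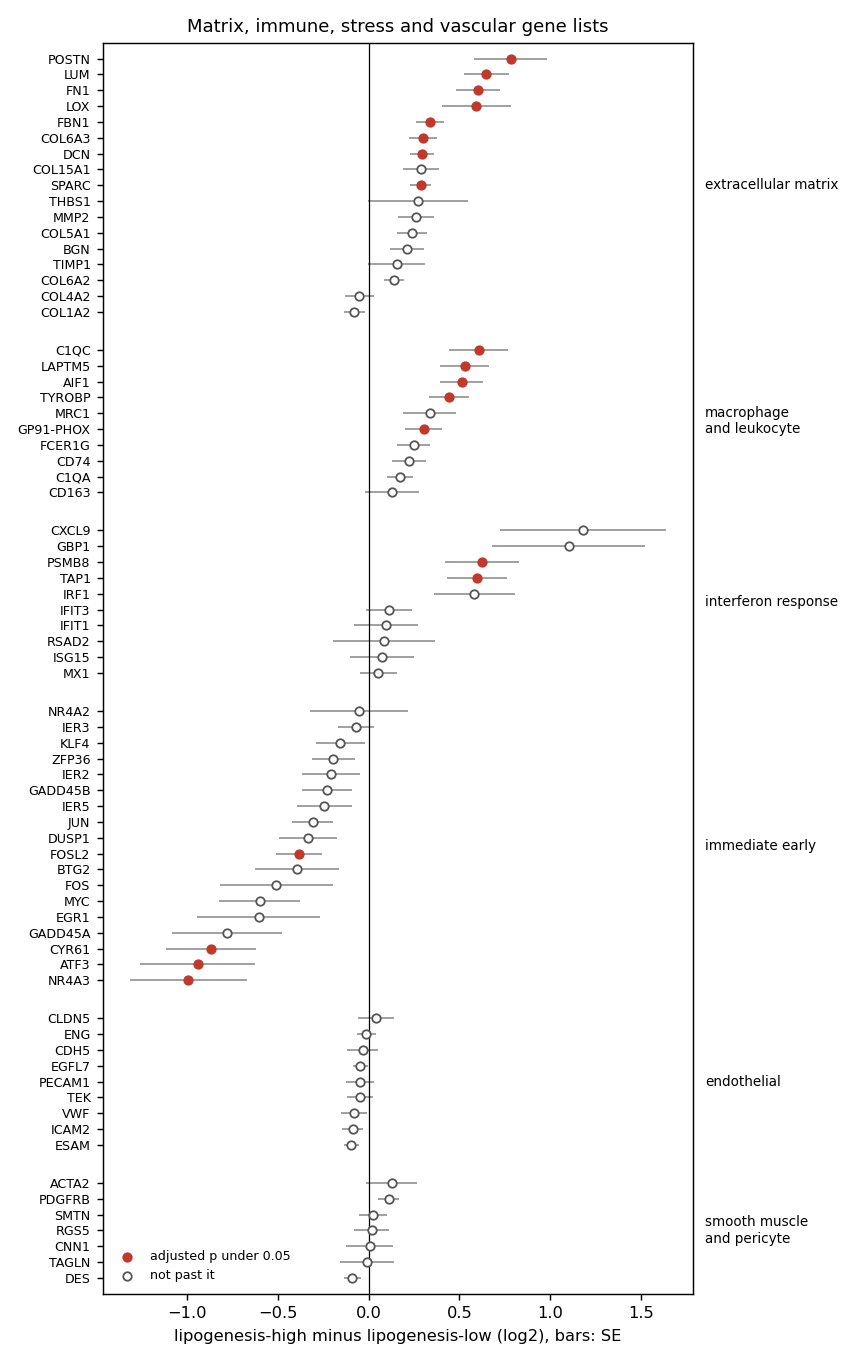
Difference in log2 expression, lipogenesis-high minus lipogenesis-low, for each tested gene of 6 lists of matrix, immune, stress and vascular genes, with its SE. Filled points passed an adjusted p of 0.05: 8 of 17 matrix genes and 5 of 10 macrophage genes lie to the right, 4 of 18 immediate early genes to the left, and no endothelial or smooth muscle gene passed.

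All 18 tested immediate early genes had negative differences between lipogenesis-high and lipogenesis-low muscles, and 4 of them passed, with a median of -0.36, against 2.3% of all genes. CYR61, a secreted matrix protein induced by growth factors, ran from 7.92 to 10.74 log2 with a median of 9.44 in lipogenesis-high muscles, against 8.73 to 11.44 with a median of 10.46 in lipogenesis-low muscles. It was lower by -0.87 ± 0.25 (SE), or 0.548-fold (adjusted p = 0.0226). The nuclear receptor gene NR4A3 was lower by -0.99 ± 0.32 (adjusted p = 0.042), the stress transcription factor gene ATF3 by -0.94 ± 0.32 (adjusted p = 0.0489) and the AP-1 member FOSL2 by -0.38 ± 0.13 (adjusted p = 0.0484). These 3 calls were lost when single arrays were left out, with adjusted p up to 0.0661, 0.083 and 0.0785. The genes vary widely between pigs, as their SDs show: ATF3 had 1.13 in lipogenesis-high muscles and 0.94 in lipogenesis-low muscles. With the first principal component of unlisted genes as a covariate, none of the 18 passed and the median was -0.19. None passed with the adipocyte level or the heat shock level, described below, as a covariate (medians -0.31 and -0.29). Nor did any pass for the slope on the score over all arrays. Only CYR61 passed with the EIF1AY level as a covariate, while 4 were lower without the 2 highest arrays. CYR61 did not pass with the adipocyte, heat shock or first principal component covariate (adjusted p = 0.132, 0.0741 and 0.16), nor for the slope (0.159).

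Of 19 tested heat shock genes 1 was lower, against 2.3% of all genes. It was HSP70.2, an inducible chaperone with near-identical copies that probes may not separate (-0.42 ± 0.14, SE, adjusted p = 0.0486, and up to 0.0821 with single arrays left out). Its other tested probe sets gave -0.65 and -0.285 and did not pass (adjusted p = 0.0623 and 0.272). The co-chaperone gene BAG3 was lower by its second probe set (-0.56, adjusted p = 0.0244) and did not pass by its brightest (-0.34, adjusted p = 0.0743). The list median was -0.18, and the standardised level averaged -0.39 in lipogenesis-high muscles and 0.22 in lipogenesis-low muscles. With the heat shock level as a covariate 237 genes were higher and 38 lower, and 203 and 27 of these were among the genes called without it. CREM, a transcription factor that responds to cAMP, was lower by -0.66 ± 0.16 (adjusted p = 0.00914), and its second probe set also gave -0.66. Its call held with the heat shock covariate (adjusted p = 0.0335). It was lost with the adipocyte level or the first principal component as a covariate (adjusted p = 0.184 and 0.137). The slope on the score over all arrays did not pass either (adjusted p = 0.124). CREM ran from 9.65 to 11.57 log2 with a median of 10.51 in lipogenesis-high muscles, against 10.27 to 12.09 with a median of 11.18 in lipogenesis-low muscles.

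Among the largest differences were genes outside these lists. PON3, a lactonase of the paraoxonase family, ran from 4.91 to 8.95 log2 with a median of 7.38 in lipogenesis-high muscles, against 4.16 to 8.82 with a median of 4.90 in lipogenesis-low muscles. Every lipogenesis-high array lay at or above the lipogenesis-low median, yet the ranges overlapped. The difference of 1.71 ± 0.48 (SE), or 3.28-fold, was the largest of all genes tested (adjusted p = 0.0196). PON3 averaged 7.16 in lipogenesis-high, 6.24 in middle and 5.45 in lipogenesis-low muscles, so it passed the brightness filter of 6.28 through its level in the lipogenesis-high group. The called genes DGAT2, POSTN, ACSL5 and GP91-PHOX also averaged below the filter in lipogenesis-low muscles, and FOSL2 did so in lipogenesis-high muscles. MGST1, a membrane-bound glutathione transferase, ran from 7.27 to 9.53 with a median of 8.58 in lipogenesis-high muscles, against 6.50 to 8.23 with a median of 7.48 in lipogenesis-low muscles. In 13 of 20 lipogenesis-high arrays it lay above every lipogenesis-low array, and it was higher by 0.99 ± 0.16, or 1.99-fold (adjusted p = 0.000129). GPNMB, a membrane glycoprotein of lysosome-rich macrophages and pigment cells, was higher by 1.04 ± 0.24 (adjusted p = 0.0059), with a median of 7.40 in lipogenesis-high muscles and 6.58 in lipogenesis-low muscles.

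Other genes among the 20 largest positive differences that passed had diverse roles. SEC24D, a coat subunit of the vesicles that carry cargo such as procollagen out of the endoplasmic reticulum, was higher by 0.72 ± 0.12 (SE, adjusted p = 0.000204), and all 20 lipogenesis-high arrays lay above the lipogenesis-low median of 6.97. AQP3, a channel for water and glycerol, was higher by 0.73 ± 0.14 (adjusted p = 0.000859). CDO1, the cysteine dioxygenase on the way to taurine, was higher by 0.74 ± 0.13 (adjusted p = 0.000461), and in 12 of 20 lipogenesis-high arrays it lay above every lipogenesis-low array. The metallothionein gene MT-2B was higher by 0.80 ± 0.19 (adjusted p = 0.00757). The matrix genes ASPN and CCDC80 were higher by 0.75 and 0.69, the complement genes C4A and C4BPA by 0.72 and 0.71, and FAM46C, ANKRD44 and ARPP21 by 0.85, 0.79 and 0.69.

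SMPDL3A had the largest decrease of all genes tested. This phosphodiesterase, related to acid sphingomyelinase, ran from 6.71 to 10.21 log2 with a median of 8.39 in lipogenesis-high muscles, against 7.92 to 11.33 with a median of 9.63 in lipogenesis-low muscles. In 5 of 20 lipogenesis-high arrays it lay below every lipogenesis-low array. SMPDL3A was lower by -1.28 ± 0.28 (SE), or 0.413-fold (adjusted p = 0.00379). RETREG1, a receptor for the autophagy of endoplasmic reticulum, was lower by -0.88 ± 0.23 (adjusted p = 0.0121), and its second probe set gave -0.91. DDIT4L, an inhibitor of mTOR signalling, was lower by -0.66 ± 0.17 (adjusted p = 0.0106), and all 20 lipogenesis-high arrays lay below its lipogenesis-low median of 9.18. TBC1D1, which restrains glucose transporter traffic in muscle, was lower by -0.38 ± 0.11 (adjusted p = 0.0214). The other genes among the 20 largest decreases that passed were the actin-binding XIRP1 of striated muscle (-0.86), the mitochondrial nucleotide carrier SLC25A33 (-0.67), TMEM140 (-0.50), the receptor kinase GRK3 (-0.45), the haem oxygenase HMOX2 (-0.44), the adrenomedullin gene ADM (-0.40), the deubiquitinase CYLD (-0.39) and TIAF1 (-0.38). Of these, XIRP1, SLC25A33, ADM and CYLD lost their calls when single arrays were left out.

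**Figure D4:**
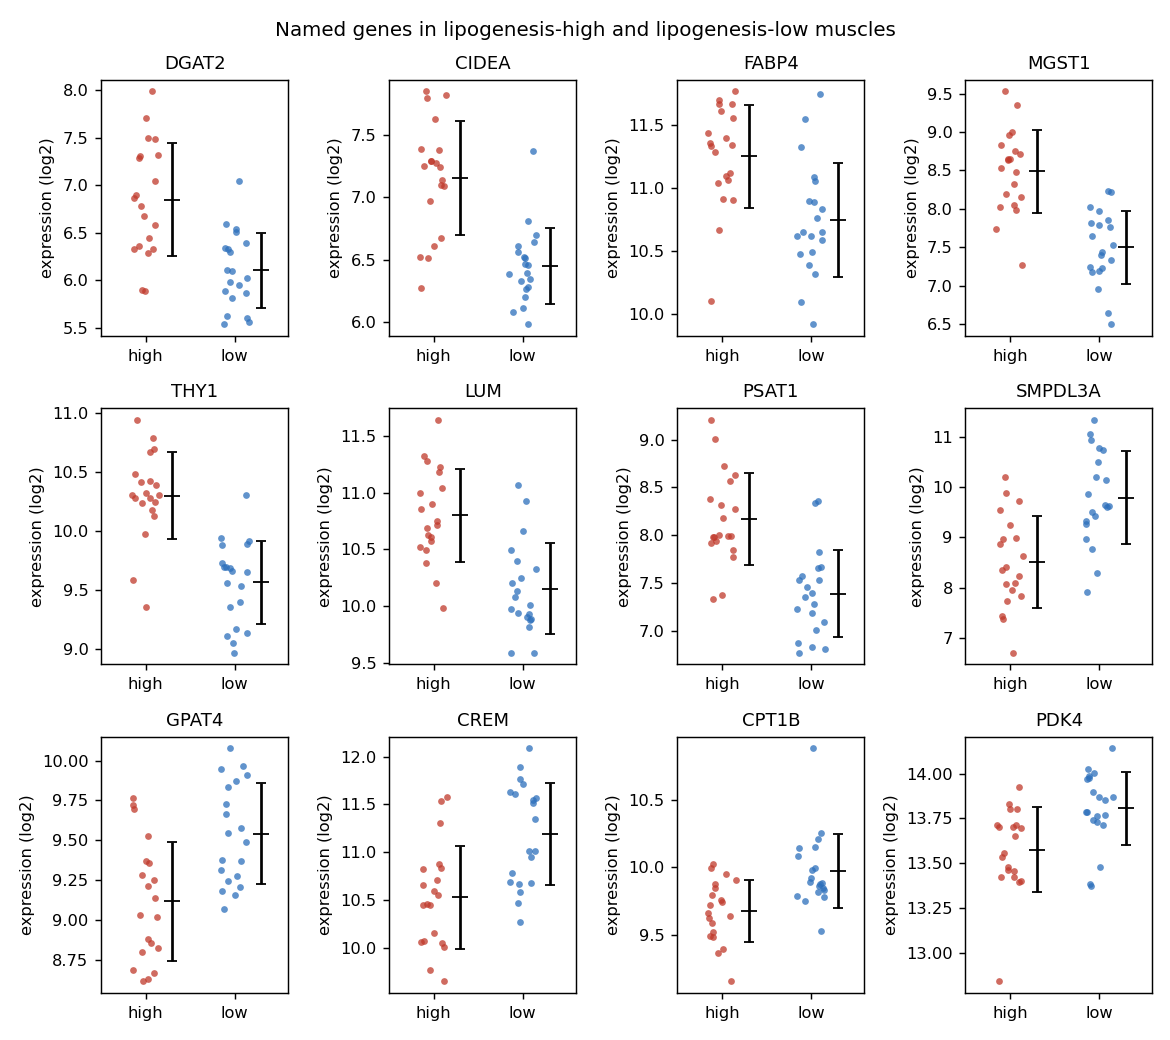
Expression (log2, 1 point per array) of 12 named genes, picked after their values were seen, in 20 lipogenesis-high (left) and 20 lipogenesis-low (right) muscles, with mean and SD. MGST1 and THY1 have 13 and 9 lipogenesis-high arrays above every lipogenesis-low array, GPAT4 has 10 below every one, and FABP4 and PDK4 overlap over most of their range.

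The middle 19 arrays gave no called gene of their own. Their scores spanned only -0.310 to 0.174. No probe set passed for a slope on the score in them, and 528 of 11967, or 4.41%, had an unadjusted p under 0.05. Of the 361 higher genes 113 had a positive slope there, and of the 113 lower genes 52 had a negative one, against 2352 positive slopes among all 4921 genes. The mean of the middle arrays did lie between both group means for 329 of the 361 higher and 106 of the 113 lower genes. Over all 59 arrays, 158 genes had a positive and 8 a negative slope past the threshold, and 133 and 6 of these were among the genes called between the groups. PSAT1 (0.40 ± 0.06 log2 per SD of the score, SE, adjusted p = 1.32e-06), DGAT2 (0.37 ± 0.06, adjusted p = 1.16e-05) and CIDEA (0.32 ± 0.05, adjusted p = 3.18e-06) were among them, while SMPDL3A, CYR61 and GPAT4 did not pass (adjusted p = 0.234, 0.159 and 0.301).

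The number of called genes depended on which of the 3 genes ranked the muscles. Ranking by SCD and ELOVL6 gave 348 higher and 66 lower genes, by FASN and ELOVL6 226 and 173, and by FASN and SCD 35 and 1. When all probe sets of each score gene were averaged into the score, 59 were higher and 23 lower. No gene called here was called in the opposite direction under any of these rankings. EIF1AY, a translation initiation factor gene, lay in 2 separate clusters, 3.05 to 3.52 and 9.97 to 10.56 log2. The upper cluster held 8 of 20 lipogenesis-high, 13 of 19 middle and 5 of 20 lipogenesis-low arrays, so it was unevenly spread over the groups. The labels give no sex per pig, and whether the clusters follow sex was not tested. With the EIF1AY level as a covariate, 323 genes were higher and 104 lower.

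**Figure D5:**
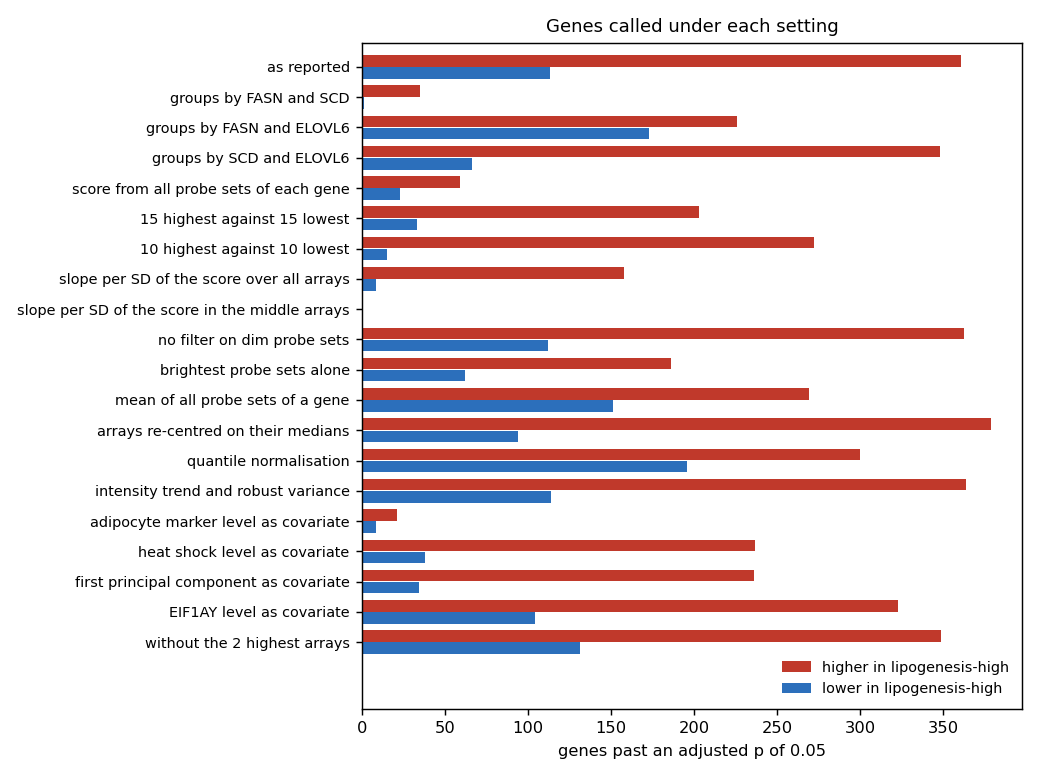
Number of genes past an adjusted p of 0.05, higher (upper bar) and lower (lower bar) in lipogenesis-high muscles, under each way of grouping, filtering, normalising or adjusting. Counts run from 0 in the middle arrays to 379 higher genes after re-centring, and the adipocyte covariate leaves 21 higher and 8 lower.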

How the data were processed

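Total RNA of 59 longissimus dorsi samples was labelled with biotin and hybridised to Affymetrix porcine arrays, 1 per pig, per the labels' protocols. The authors deposited 1 normalised value per probe set and array, read here as log2. The submitters' processing notes name GCRMA, whose version and log base are not given in the sources used here. GCRMA draws signals near background together, which shrinks differences of dim genes.

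Of 24123 probe sets, 10099 had 1 gene symbol, 198 had several and 13826 none. The 124 Affymetrix control probe sets and every probe set of FASN, SCD and ELOVL6 were left out, and probe sets at least as bright on average as the median probe set (6.28 log2) were tested: 11967, with 4921 genes. The brightest tested probe set stood for its gene. Groups were compared with limma 3.58.1 in R 4.3.3 (lmFit, eBayes; Benjamini-Hochberg over all probe sets tested), a script tested on simulated data. Tables used Python 3.11.15 and pandas 2.3.3. Genes were named by rule: tested members of 7 lipid lists, up to 6 of each other list by unadjusted p, and the 20 largest differences in each direction among genes that passed. Other genes, apart from the muscle markers CKM, MYLPF and MYH7 and the covariate EIF1AY, are named as chosen after their values were seen. The score genes, the groups and the 30 gene lists were chosen with earlier results of these data known, and lists are described by counts and medians. Pigs are separate animals. The number of arrays limits the precision. Promoter sequences were not analysed here.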

Additional observations from a re-analysis of the deposited data

How the results depend on the processing

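No called gene passed in the opposite direction under any setting. Counts of higher and lower genes were 203 and 33 for the 15 highest against the 15 lowest arrays, 272 and 15 for 10 against 10, 158 and 8 for the slope over all arrays, and 0 and 0 in the middle arrays, where 214 genes had an unadjusted p under 0.05. They were 35 and 1 for groups by FASN and SCD, 226 and 173 by FASN and ELOVL6, 348 and 66 by SCD and ELOVL6, and 59 and 23 with all probe sets in the score. They were 186 and 62 for the 6000 brightest probe sets alone, which test fewer genes, and 300 and 196 with quantile normalisation. Covariates gave 21 and 8 (adipocyte), 237 and 38 (heat shock) and 236 and 34 (first principal component). Leaving out single arrays gave 285 to 484 higher and 74 to 208 lower. The cause of these changes was not tested. Without the filter, with the mean of probe sets, re-centring, a trended variance, the EIF1AY covariate or without the 2 highest arrays, both counts stayed within 1.5 times.

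A sign change was counted where either value passed. BSCL2 turned to 0.0090 with all probe sets in the score. In the middle arrays, where no slope passed, signs turned for SMPDL3A 0.067, GRK3 0.14, RETREG1 0.16, TBC1D1 0.25, TMEM140 0.15, TIAF1 0.70, SLC25A33 0.0033, CYR61 0.29, BSCL2 0.37 and GPAT4 0.17, and for SEC24D -0.83, AQP3 -0.66, C4A -1.53, FAM46C -0.85, C4BPA -1.25, GPNMB -1.46, MT-2B -1.003, ANKRD44 -0.12, ARPP21 -0.40, ME1 -0.047, TKT -0.33, FABP4 -0.019, MSMO1 -0.10, FN1 -0.29, POSTN -0.94, THY1 -0.12, TAP1 -0.67, PSMB8 -1.81, LIPA -0.995, AIF1 -1.33, TYROBP -1.73, LAPTM5 -1.92, C1QC -1.63, GP91-PHOX -1.35, CAPN1 -0.13, CTSS -1.89, ACSL4 -0.63 and ACSL5 -1.13 (log2 per SD of the score). Of 73 named genes that passed, 54 kept the call in every omission of 1 array. No paired analysis was possible because each pig gave 1 array and pig numbers pair nothing.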

Other observations

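The genes below were chosen after their values were seen. Higher in lipogenesis-high muscles were the collagen prolyl isomerase genes FKBP14 (0.44 ± 0.08 log2, SE, limma adjusted p = 0.00045) and FKBP10 (0.34 ± 0.06, adjusted p = 0.000642), and CRTAP, a partner of collagen prolyl hydroxylation (0.31 ± 0.05, adjusted p = 0.000595). FAP, a surface protease of activated fibroblasts, was higher by 0.52 ± 0.10 (adjusted p = 0.00181) and the cadherin gene CDH11 by 0.63 ± 0.14 (adjusted p = 0.00505). FST, which encodes the activin and myostatin inhibitor follistatin, was higher by 0.61 ± 0.13 (adjusted p = 0.00399).

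The complement gene C3 was higher by 0.66 ± 0.18 (SE, adjusted p = 0.0171), C1R by 0.42 ± 0.10 (adjusted p = 0.00815), C1S by 0.46 ± 0.12 (adjusted p = 0.0141) and the inhibitor gene SERPING1 by 0.40 ± 0.08 (adjusted p = 0.0026). The Fc receptor gene FCGR2B was higher by 0.55 ± 0.15 (adjusted p = 0.0151) and the chemokine gene CXCL12 by 0.53 ± 0.13 (adjusted p = 0.00698). Among lower genes were PPP1R15A, a phosphatase subunit induced by stress (-0.37 ± 0.11, adjusted p = 0.0273), and NAMPT, an enzyme of NAD synthesis (-0.32 ± 0.09, adjusted p = 0.0227). Of 5769 tested probe sets without a single gene symbol, 457 were higher and 120 lower. Of all 11967 tested probe sets, 871 were higher and 306 lower, which are close shares.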
